A study of Mus musculus with 9 samples.

Results

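The 10 transcription factors described here set the identity of melanocytes or mark the switch of melanoma cells away from it. They are Mitf, Sox10, Pax3, Lef1, Tfap2a, Zeb1, Zeb2, Snai2, Sox9 and Tcf4, and they were taken by gene symbol from the deposited tables. All 10 were found among the 22972 gene names listed for each library. Of the 10 factors, 7 reached the level required for testing, an average of 1 FPKM across the 9 libraries, as did 10109 genes in all. FPKM is the number of sequenced fragments of a gene scaled to transcript length and to the total of mapped fragments. It is a level per length, so levels of different genes can be set side by side. Differences in base composition between genes are not part of this scaling.

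B16 is a pigmented mouse melanoma line, labelled as genotype WT, and it was grown on an elastic film of PDMS, a silicone. RNA was sequenced on day 3 in 3 groups of 3 libraries, to examine how mechanical stimulation acts on melanoma cells. The CTL group was the labelled control, and the MS group was mechanically stimulated by cyclic straining of the film for 72 h. The last group received 100 ng/mL of the myosin inhibitor blebbistatin for 72 h; its labels name the inhibitor alone, while the methods of the study combine it with straining and call it MS + Blebb., the name used here. All groups came from the same cell line, and blebbistatin without straining was not analysed here.

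The libraries carried the melanocytic profile that the label of the line implies. The summed level of 6 melanocyte markers (Tyr, Tyrp1, Dct, Pmel, Mlana and Sox10) lay between 7407 and 12920 FPKM. In contrast, 6 fibroblast markers summed to at most 1.23 FPKM, with Dcn and Lum listed at 0 in every library, and 6 keratinocyte markers summed to at most 0.0363 FPKM, with Krt1, Krt10 and Trp63 at 0. Of 6 macrophage markers only Cd68 reached a mean of 1 FPKM (summed range 2.10 to 4.32), and Ptprc was listed at 0.

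The libraries also differed in ways that the groups did not follow. Correlations between whole libraries had a median of 0.974 within groups and 0.976 between groups, and the first principal component, with 70.4% of the variance, put CTL replicate 1 (score -42.1) beside MS + Blebb. replicate 2 (-43.9). MS replicate 3 had the next lowest score (-10.0), but MS + Blebb. replicate 1 was close to it (-7.3). The first component therefore did not separate MS replicate 3 from the other libraries. MS replicate 3 and the 2 libraries with the lowest scores are called the libraries set apart below. This set of 3 was chosen with earlier results of these data known. Genes of high GC content were relatively high in some libraries and low in others, as seen from r between GC content and how far a library lay from the mean of each gene, which was lowest in MS replicate 1 (-0.642) and highest in MS + Blebb. replicate 1 (0.547). Both facts bear on every value of the factors, so the results are also given without these libraries and with the GC trend removed.

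As background, Mitf is the central transcription factor of the melanocyte. It activates pigment genes such as Tyr and Pmel, and its own transcription is driven by Sox10, Pax3, Creb1 and the β-catenin partner Lef1. Melanoma cells can move between a differentiated state with high Mitf and an undifferentiated, invasive state with low Mitf. In that switch Zeb2 and Snai2, which melanocytes use, give way to the paralogue Zeb1, and Sox10 gives way to Sox9.

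Mitf lies on the plus strand of chr6:97807052-98021349 (GRCm38), and its transcripts begin at several alternative first exons. The most downstream of the 3 starts in the RefSeq promoter table, at position 97991783, is the melanocyte-specific M start. The sequences of 2 of these promoters are shown because they carry letters that other factors of the set, or Creb1, can read. Each covers the 250 bases before the start on the plus strand (RefSeq, GRCm38.p6), chr6:97991533-97991782 for the M start and chr6:97929567-97929816 for the start upstream of it. Capitals mark CTTTGAT, the core bound by LEF and TCF proteins, and TGACGTCA, the cyclic AMP response element bound by CREB proteins, in the former, and CAGGTG, the E-box bound by ZEB and SNAI proteins, in the latter.
Mitf M start: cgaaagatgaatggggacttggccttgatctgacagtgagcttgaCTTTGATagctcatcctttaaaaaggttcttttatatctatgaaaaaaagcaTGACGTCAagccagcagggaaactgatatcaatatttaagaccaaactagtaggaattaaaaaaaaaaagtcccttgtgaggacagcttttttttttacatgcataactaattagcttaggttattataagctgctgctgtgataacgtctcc
Mitf upstream start: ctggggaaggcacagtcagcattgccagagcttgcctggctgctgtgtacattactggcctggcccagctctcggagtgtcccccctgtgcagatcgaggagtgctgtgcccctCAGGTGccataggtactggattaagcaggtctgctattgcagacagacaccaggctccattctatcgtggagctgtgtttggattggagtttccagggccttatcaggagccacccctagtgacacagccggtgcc

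Windows from that promoter table were searched for 4 of the 10 factors (Mitf, Lef1, Tfap2a and Zeb2), 13 windows of 300 bases. Zeb1 and Tcf4 were left out of this search beforehand. The motif CTTTGAT, searched on both strands, lies at offset -205 (in bases) from the M start and occurred in 3.73% of all 32851 windows. The motif TGACGTCA lies at offset -153 from the M start and occurred in 1.79% of the windows. In the upstream promoter CAGGTG lies at offset -136 from the start, and this motif was found in 20.2% of the windows. The E-boxes CACGTG and CATGTG, searched likewise, were not in the 3 Mitf windows and occurred in 7.15% and 14.2% of all windows. At Lef1, CACCTG, the reverse complement of CAGGTG, lay at offset 30 from a start, and CACGTG at offset -79 from another start. The windows of Tfap2a and Zeb2 held none of these motifs. The M promoter had a GC content of 36.0%, against 58.0% for the upstream one. The deposited values give 1 level per gene, so they cannot tell transcripts of the M start from those of the others.

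Sox10 was the highest of the factors, and Lef1, Zeb1 and Snai2 were the lowest. Mean levels over the 9 libraries placed Sox10 (260 FPKM) above Mitf (21.4 FPKM) in 9 of 9 libraries, with ranges that did not meet. Mitf and Pax3 (19.3 FPKM) could not be ordered, since Mitf was the higher of the pair in only 4 of 9 libraries. Pax3 lay above Tfap2a in 8 libraries, Tfap2a above Zeb2 in 8 and Zeb2 above Tcf4 in 9, each with overlapping ranges. Tcf4 and Sox9 could not be ordered (5 of 9 libraries), Snai2 lay below Sox9 in 9 of 9 libraries with ranges apart, and Zeb1 and Lef1 were at or near 0.

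**Figure D1:**
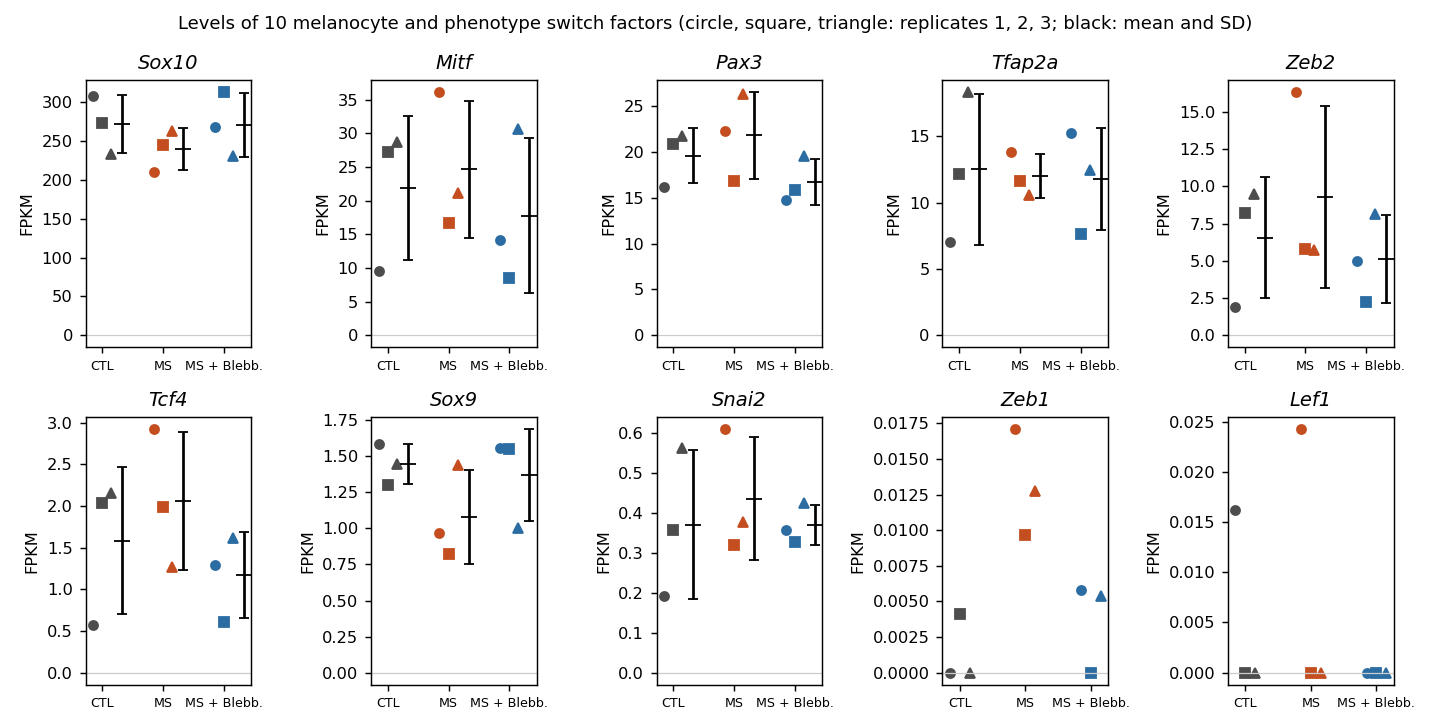
The panels plot FPKM (y axis, starting near 0 and scaled per gene) of the 10 factors in CTL, MS and MS + Blebb., with circles, squares and triangles for replicates 1, 2 and 3 and black bars for the mean and SD of 3 libraries, left out for Zeb1 and Lef1, which have values of 0. Mitf spans 8.51 to 36.2 FPKM with overlapping groups, while Sox10 stays between 209.8 and 312.9 FPKM.

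Sox10, the SRY-box factor that melanocytes and their neural crest precursors require, is encoded on chr15:79154908-79165240. Its level was 307.5, 273.3 and 233.3 FPKM in CTL replicates 1 to 3, 209.8, 245.1 and 262.5 FPKM in MS, and 267.2, 312.9 and 230.6 FPKM in MS + Blebb. The 2 highest values belonged to CTL replicate 1 and MS + Blebb. replicate 2, and the groups overlapped. Group means were 271 ± 37.2, 239 ± 26.9 and 270 ± 41.3 FPKM (SD, n = 3 each). With a coefficient of variation of 13.3%, Sox10 was the steadiest of the factors.

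Mitf was 9.50, 27.2 and 28.8 FPKM in CTL, 36.2, 16.7 and 21.2 FPKM in MS, and 14.2, 8.51 and 30.7 FPKM in MS + Blebb. The lowest values again came from MS + Blebb. replicate 2 and CTL replicate 1, and the groups overlapped. The means were 21.8 ± 10.7, 24.7 ± 10.2 and 17.8 ± 11.5 FPKM (SD, n = 3 each), so the SD within a group exceeded any difference between the means. The highest library was 4.25 times the lowest, and the coefficient of variation of 45.9% was larger than that of 91.1% of the genes tested. On the scale of log2(FPKM + 1), differences between group means held 11.7% of the variance of Mitf, where the median over all genes tested was 12.7%. In bulk RNA a smaller number of cells with Mitf and less Mitf per cell cannot be told apart.

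Pax3, a paired-box activator of Mitf (chr1:78101267-78197134), was 16.2, 20.9 and 21.7 FPKM in CTL, 22.3, 16.8 and 26.2 FPKM in MS, and 14.7, 15.8 and 19.5 FPKM in MS + Blebb. All 3 MS libraries lay above the median of MS + Blebb., although the ranges overlapped. Tfap2a, or AP-2α, which works with Mitf at melanocyte genes (chr13:40715302-40738376), was 7.003, 12.2 and 18.3 FPKM in CTL, 13.8, 11.6 and 10.5 FPKM in MS, and 15.2, 7.67 and 12.5 FPKM in MS + Blebb. The group means of Tfap2a were nearly level, at 12.5 ± 5.68, 12.0 ± 1.68 and 11.8 ± 3.82 FPKM (SD, n = 3 each). Lef1 (chr3:131110471-131224356) was listed at 0 in 7 of 9 libraries and reached 0.0162 FPKM in CTL replicate 1 and 0.0242 FPKM in MS replicate 1, so hardly any Lef1 RNA was detected in these cells.

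Zeb2, the zinc finger repressor that normal melanocytes express (chr2:44983632-45117395), varied most in proportion among the tested factors. It was 1.92, 8.19 and 9.52 FPKM in CTL, 16.3, 5.77 and 5.76 FPKM in MS, and 5.00, 2.22 and 8.16 FPKM in MS + Blebb. The highest library was 8.49 times the lowest, and the lowest were once more CTL replicate 1 and MS + Blebb. replicate 2. Zeb1, the paralogue linked to the invasive state, was 0, 0.00411 and 0 FPKM in CTL, 0.0171, 0.00967 and 0.0127 FPKM in MS, and 0.00581, 0 and 0.00537 FPKM in MS + Blebb. The 3 MS libraries were the highest of the 9, at levels next to 0. Zeb2 was above Zeb1 in all 9 libraries.

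Snai2, or Slug, a repressor used by migrating neural crest cells (chr16:14705852-14709385), was 0.192, 0.357 and 0.564 FPKM in CTL, 0.610, 0.319 and 0.378 FPKM in MS, and 0.357, 0.327 and 0.425 FPKM in MS + Blebb. All 3 groups overlapped, and each mean was below 1 FPKM. Tcf4, a basic helix-loop-helix E protein that is distinct from the β-catenin partner Tcf7l2, was 0.568, 2.04 and 2.15 FPKM in CTL, 2.92, 1.99 and 1.27 FPKM in MS, and 1.30, 0.608 and 1.62 FPKM in MS + Blebb. Its lowest libraries were those of Mitf and Zeb2. Sox9, the SoxE relative of Sox10 (chr11:112782224-112787760), was 1.58, 1.30 and 1.45 FPKM in CTL, 0.971, 0.821 and 1.44 FPKM in MS, and 1.55, 1.55 and 1.00 FPKM in MS + Blebb. Sox10 exceeded Sox9 by 161 to 298 times in every library, with a median of 202.

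MS was compared with CTL, here called the straining comparison, to ask whether cyclic straining changed the factors. None of the 7 tested factors passed an adjusted p of 0.05 in limma on log2(FPKM + 1) with Benjamini-Hochberg adjustment, a level that 0.0% of the 10109 genes tested passed. None of the 7 passed an unadjusted p of 0.05 either, a level that 0.158% of the genes passed (16 genes). The log2 fold change, which on this scale understates changes of low genes, was 0.24 (standard error 0.52) for Mitf, -0.18 (0.16) for Sox10, 0.14 (0.19) for Pax3 and 0.028 (0.33) for Tfap2a. For the remaining factors it was 0.50 (0.58) for Zeb2, 0.28 (0.33) for Tcf4 and -0.24 (0.18) for Sox9, and the adjusted p from limma was 1.00 for all 7. Without CTL replicate 1 the sign turned for Mitf (-0.24), Tfap2a (-0.30), Zeb2 (-0.087) and Tcf4 (-0.051), and without the 3 libraries set apart for Mitf (-0.18), Tfap2a (-0.22) and Pax3 (-0.13). With the GC trend removed the values were 0.085 for Mitf, 0.28 for Zeb2, 0.063 for Tcf4 and -0.064 for Sox10.

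MS + Blebb. was compared with MS, here called the inhibitor comparison, to ask whether inhibition of myosin changed the factors in strained cells. Again none of the 7 factors passed an adjusted p of 0.05, which 0.0% of all genes passed, or an unadjusted p of 0.05, which 1.25% of the genes passed (126 genes). On the log2 scale the difference was -0.56 (standard error 0.52) for Mitf, -0.72 (0.58) for Zeb2, -0.49 (0.33) for Tcf4, -0.35 (0.19) for Pax3, 0.17 (0.16) for Sox10 and 0.19 (0.18) for Sox9, each with an adjusted p of 0.897 in limma. Tfap2a was at -0.063 (0.33) with an adjusted p of 0.976 in limma. The direction of Mitf was the same with any library left out, from -1.03 without MS + Blebb. replicate 3 to -0.16 without MS + Blebb. replicate 2, and Zeb2 ran from -1.08 to -0.27. With the GC trend removed the values were -0.28 for Mitf, -0.38 for Zeb2, -0.15 for Tcf4 and 0.0075 for Sox10, and without the 3 libraries set apart they were -0.23 for Mitf, -0.55 for Zeb2 and -0.18 for Pax3. An unadjusted p under 0.05 was reached by Tcf4 with a block for the libraries set apart (limma, adjusted p = 0.534) and without them (limma, adjusted p = 0.998), and by Pax3 without MS replicate 2 (limma, adjusted p = 0.747). Of the 10109 genes tested, 586 reached it with the block, 111 without the libraries set apart and 598 without MS replicate 2.

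The comparison of MS + Blebb. with CTL, which shares its samples with the other comparisons, gave log2 fold changes of -0.32 for Mitf, -0.0082 for Sox10, -0.22 for Pax3, -0.035 for Tfap2a, -0.23 for Zeb2, -0.21 for Tcf4 and -0.053 for Sox9. All had an adjusted p of 1.00 in limma, none had an unadjusted p under 0.05, and the corresponding shares of all genes were 0.0% and 0.089% (9 genes). No tested factor separated the groups completely in any comparison. Of all genes tested, 3.17% did so in the straining comparison, 3.73% in the inhibitor comparison and 2.08% between MS + Blebb. and CTL.

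**Figure D2:**
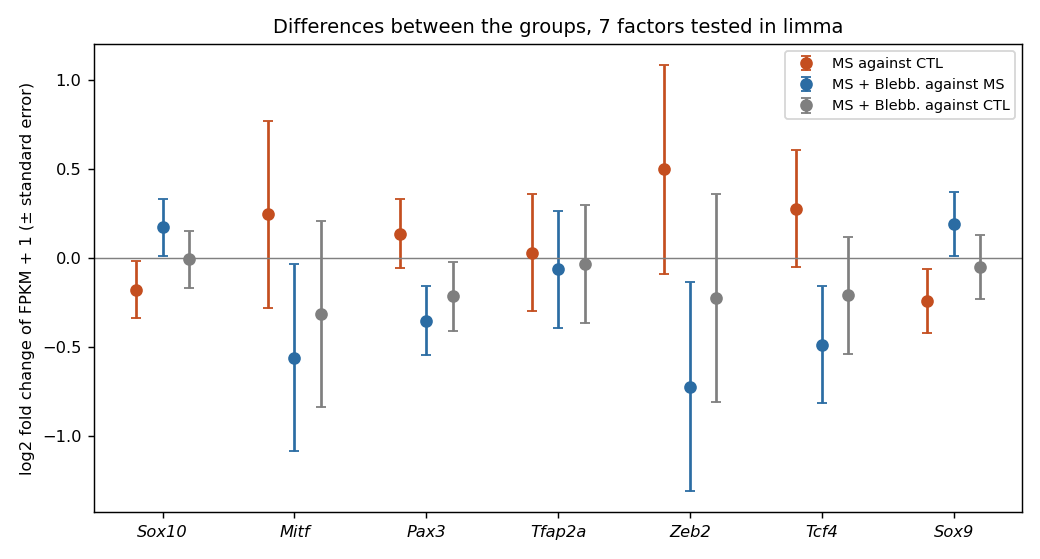
Points are log2 fold changes of FPKM + 1 (y axis) for the 7 tested factors (x axis) in the 3 comparisons named by colour, and bars are the standard errors from limma. The bars of Mitf and Zeb2 are the longest, with a standard error of 0.52 and 0.58, and Sox10 has the shortest, 0.16.

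The 3 factors below 1 FPKM were compared by a two-sided exact permutation test, in which 3 against 3 libraries cannot give a p below 0.1. Zeb1 was higher in MS than in CTL (means of the listed values 0.0132 and 0.00137 FPKM) and than in MS + Blebb. (0.00373 FPKM), without overlap in either case and with an exact p of 0.1 in both; 3.17% and 3.73% of the tested genes did not overlap in these comparisons. These are levels at which a gene has close to no fragments, and no fold was computed. For Snai2 the exact p was 0.6 in the straining comparison and 0.7 in the inhibitor comparison, and for Lef1 it was 1.0 in both.

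The ratio of Sox10 to Sox9 was compared in the same way, as the difference of their log2(FPKM + 1). It changed by 0.065 in the straining comparison (exact permutation p = 0.6) and by -0.020 in the inhibitor comparison (exact permutation p = 0.8). For Zeb2 and Zeb1 no such comparison is given, since with Zeb1 next to 0 the difference only restates the level of Zeb2.

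Across the 9 libraries, in contrast, several factors varied together with Mitf. Zeb2 followed Mitf most closely, with a Pearson r of 0.96 on log2(FPKM + 1) (exact permutation p = 6.06e-05, adjusted p = 0.000939 over 10108 genes) and a Spearman rho of 0.92 (exact p = 0.00131). Tcf4 had an r of 0.89 (exact p = 0.00149, adjusted p = 0.00767) and a rho of 0.82 (exact p = 0.0108). Sox10 ran in the opposite direction, with an r of -0.88 (exact p = 0.00236, adjusted p = 0.0104) and a rho of -0.88 (exact p = 0.00308). These 3 of the 6 other tested factors passed an adjusted p of 0.05, and so did 43.6% of all genes, of which 2824 had a positive and 1580 a negative r (2364 and 2736 after rescaling by median-of-ratios factors, 1510 and 1773 with the GC trend removed). A share of 3 in 6 is near that background and is therefore not a result about these factors.

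The remaining factors lay closer to the middle. Pax3 and Tfap2a each had an r of 0.73 with Mitf (exact permutation p = 0.0288 and 0.0261, adjusted p = 0.0617 and 0.0572), with a rho of 0.73 (exact p = 0.0311) and 0.63 (exact p = 0.0760). Sox9 had an r of -0.54 (exact p = 0.136, adjusted p = 0.209) and a rho of -0.65 (exact p = 0.0666). Of the factors below 1 FPKM, Snai2 had an r of 0.80 (exact p = 0.00764), Zeb1 of 0.51 (exact p = 0.161) and Lef1 of 0.11 (exact p = 0.778), which for the last 2 rest on values at or near 0.

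**Figure D3:**
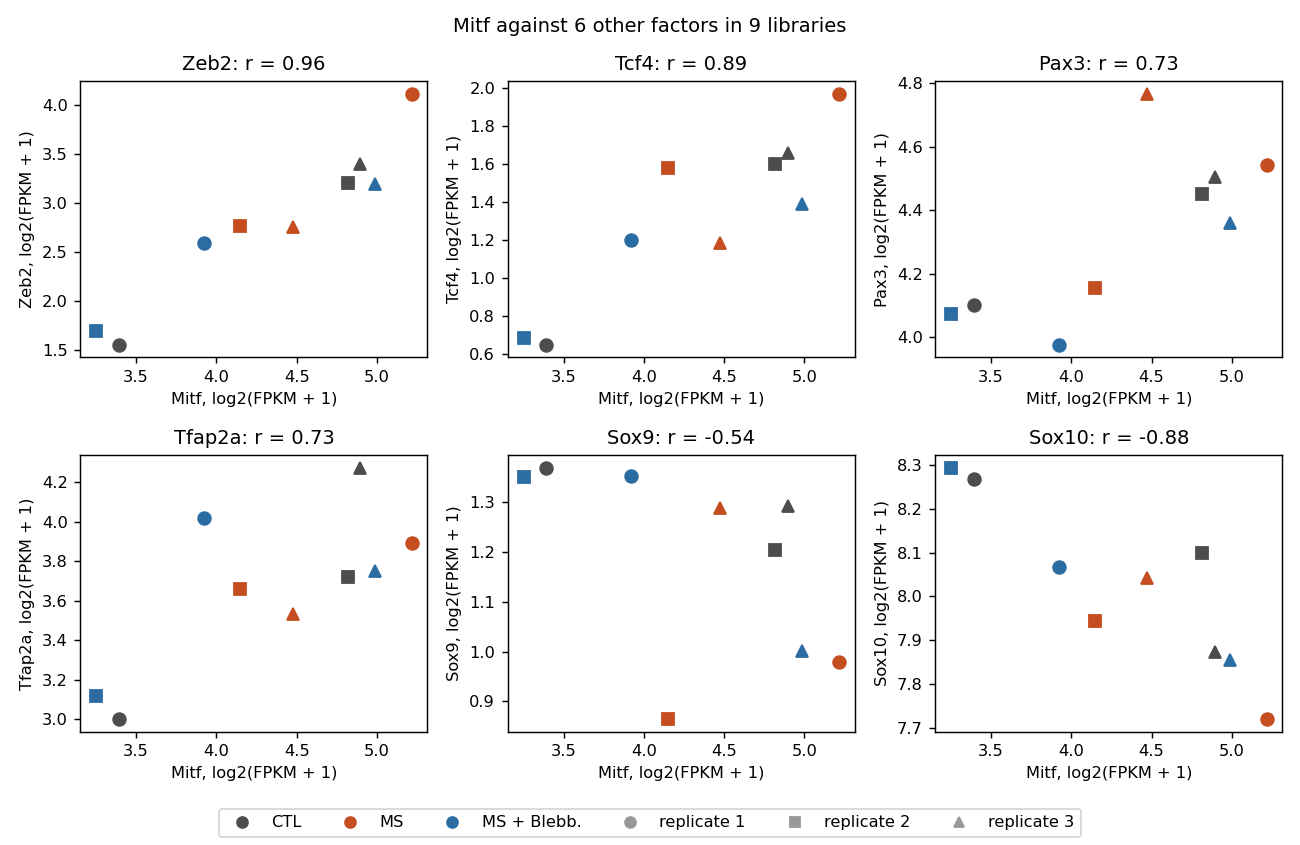
Each panel plots 1 factor against Mitf, both as log2(FPKM + 1), with colours for CTL, MS and MS + Blebb. and shapes for replicates 1, 2 and 3. Libraries of the 3 groups are mixed along each trend, and CTL replicate 1 and MS + Blebb. replicate 2 form the low end of Mitf, Zeb2, Tcf4 and Tfap2a and the high end of Sox10.

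How large an r was common for Mitf was read from all genes. The median size of r with Mitf over 10108 genes was 0.697. An r at least as large in size as that of Zeb2 was found for 6.81% of the genes, as that of Tcf4 for 19.8% and as that of Sox10 for 22.4%. For Pax3 and Tfap2a the shares were 46.2% and 46.4%, and for Sox9 65.0%. The share for Zeb2 was larger under other settings, at 16.5% for Spearman's rho, 11.3% with the GC trend removed, 10.7% in 7 libraries and 20.2% in 6, the latter 2 being the subsets described below.

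**Figure D4:**
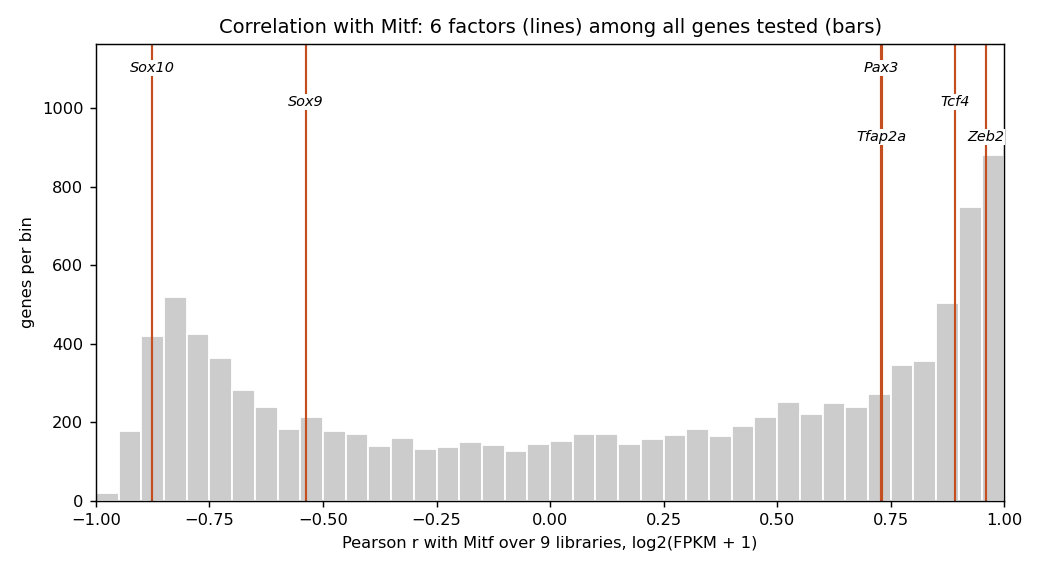
Grey bars count genes per bin of 0.05 of Pearson r with Mitf (x axis) over the 9 libraries, and lines mark the 6 other tested factors. The distribution is heaped at both ends, so the r of 0.89 for Tcf4 and of -0.88 for Sox10 fall where many genes lie, and Zeb2 at 0.96 falls in the last bins.

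The sign of r with Mitf also followed base composition. Mitf itself has a GC content of 43.4%. The median r with Mitf was 0.856 for the 3221 genes of lowest GC content (31.0% to 46.8%), 0.162 for the 3220 in the middle and -0.55 for the 3221 of highest GC content (53.1% to 72.8%), and across 9662 genes, which are not independent replicates, r with Mitf correlated with GC content at -0.604. Zeb2 (40.6%), Tcf4 (40.9%) and Snai2 (42.6%) have low GC content and Sox10 has 61.8%, while Pax3 (48.5%), Tfap2a (48.7%) and Sox9 (49.3%) lie between. After removal of this GC trend from each library, Zeb2 had an r of 0.90 with Mitf (exact permutation p = 0.000967, adjusted p = 0.0109). Under that setting Tcf4 had an r of 0.24 (exact permutation, adjusted p = 0.613) and Sox10 of -0.56 (exact permutation, adjusted p = 0.190), so Zeb2 was the only 1 of the 6 factors that passed, when 34.0% of all genes did. Pax3 was at 0.54, Tfap2a at 0.64 and Sox9 at -0.74 under the same setting.

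The co-variation was also recomputed without the libraries at its ends. Without the 2 libraries farthest from the median of Mitf on the log2 scale, MS + Blebb. replicate 2 and CTL replicate 1, the r with Mitf was 0.89 for Zeb2 (exact permutation p = 0.00556, adjusted p = 0.0589, n = 7), 0.66 for Tcf4, -0.66 for Sox10, 0.63 for Pax3, 0.14 for Tfap2a and -0.25 for Sox9, and none of the 6 passed, when 8.01% of all genes did. The relation of Tfap2a to Mitf therefore rested on those 2 libraries. In the 6 libraries that remained when all 3 set apart were left out, Zeb2 had an r of 0.90 (exact permutation p = 0.00833, adjusted p = 0.0492) and Pax3 of 0.95 (exact permutation p = 0.0111, adjusted p = 0.0578). Zeb2 was the 1 factor of 6 that passed there, against 16.9% of all genes. In those 6 libraries Tcf4 was at 0.69, Sox10 at -0.65, Sox9 at -0.21 and Tfap2a at 0.075.

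The co-variation was of similar size within the groups. With the mean of each group removed, r with Mitf was 0.96 for Zeb2, -0.90 for Sox10, 0.88 for Tcf4, 0.75 for Tfap2a, 0.70 for Pax3 and -0.52 for Sox9. The factors were also correlated among themselves, with an r of 0.961 between Zeb2 and Tcf4, -0.922 between Zeb2 and Sox10, -0.892 between Sox10 and Tcf4 and 0.701 between Sox10 and Sox9. All these values share the same 9 libraries and their GC trends, so they describe the libraries and are given without a test. The part of base composition and of the libraries set apart in them was not tested beyond the values above.

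**Figure D5:**
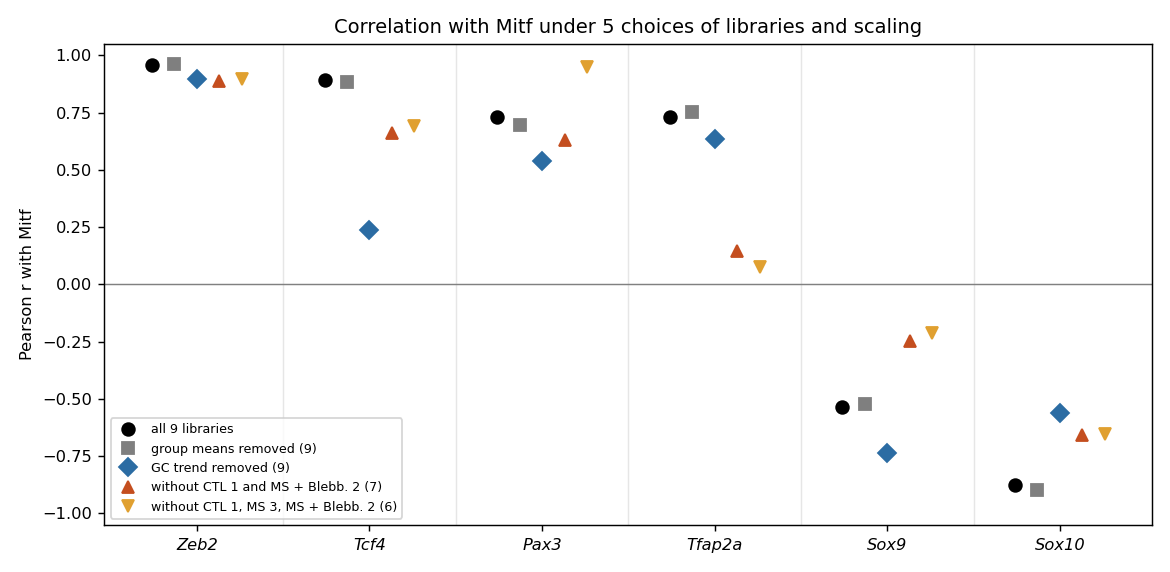
Symbols give Pearson r with Mitf (y axis) for 6 factors under 5 choices of libraries and scaling, with the number of libraries in the legend. Zeb2 stays between 0.89 and 0.96, while Tcf4 runs from 0.24 to 0.89 and Tfap2a from 0.075 to 0.75.

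The genes with the pattern most like Mitf, among those with a mean of at least 5 FPKM, were Man1a2 (r = 0.998), Agps (0.997), Ireb2 (0.997), Gphn (0.996) and Ccdc50 (0.996). Those with the most opposite pattern were Ccdc107 (-0.985), Eif2d (-0.970), Creld1 (-0.969), Nucb1 (-0.968) and Inpp5a (-0.968). Each of these 10 genes lay farther from 0 than any of the factors, over the same 9 libraries. With the GC trend removed the former lay between 0.940 and 0.990 and the latter between -0.949 and -0.853.

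Genes activated by MITF and SOX10 include those of pigment synthesis. Of 29 known target genes of MITF and SOX10, 25 were tested, and none passed an adjusted p of 0.05 in limma in any of the 3 comparisons; 8 of the 25 had a positive and 17 a negative fold change in the straining comparison (median -0.047, against -0.0018 for all genes), and 13 and 12 in the inhibitor comparison (median 0.017, against -0.0059). The r with Mitf passed for 5 of the 25, 1 positive and 4 negative, where 27.9% of all genes passed with a positive and 15.6% with a negative r. Its median was -0.52, against 0.229 for all genes. With the GC trend removed 0 passed with a positive and 10 with a negative r, and the median was -0.71, against -0.061 for all genes. The list holds targets of SOX10, such as Mbp, beside those of MITF, and no test of it against other genes was made. Pmel, the fibril protein of the melanosome, had an r of -0.83 with Mitf (exact permutation, adjusted p = 0.0235), with 6318 FPKM in CTL replicate 1, 5106 in MS replicate 3 and 5679 in MS + Blebb. replicate 2, against 2079 to 3631 FPKM in the other libraries. Tyrp1, an enzyme of eumelanin synthesis, had an r of -0.15 and ranged from 1772 to 2622 FPKM, and Gpnmb, a melanosomal glycoprotein, had an r of -0.28 and ranged from 1947 to 2675 FPKM. Ppargc1a, a coactivator of mitochondrial genes that MITF activates, was the 1 target with a positive call, at r = 0.92 and 0.652 to 4.86 FPKM.

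Tyr, the rate-limiting enzyme of melanin synthesis, had the same outline as Pmel. It was 76.0 FPKM in CTL replicate 1, 80.5 in MS replicate 3 and 74.9 in MS + Blebb. replicate 2, and from 40.2 to 49.6 FPKM in the others. Dct had it too, at 2678, 2672 and 2472 FPKM in these 3 libraries and from 1624 to 1904 FPKM in the others. Mlana did not, at 970.2, 1209 and 1072 FPKM in these 3 and from 1129 to 1383 FPKM in the others. Tyrp1 had it only in part, since MS + Blebb. replicate 2 (2078 FPKM) lay within the range of the others (1772 to 2240 FPKM). The 25 targets together had a mean log2(FPKM + 1) of 7.01, 7.02 and 6.95 in these 3 libraries and of 6.40 to 6.57 in the remaining 6. Mitf itself was low in 2 of the 3 (9.50 and 8.51 FPKM) and at its median in the third (21.2 FPKM). Among the targets only Mbp, a myelin protein activated by SOX10, had an unadjusted p under 0.05, with a log2 fold change of -0.72 in the inhibitor comparison (limma, adjusted p = 0.897). In that comparison 1.25% of all genes had an unadjusted p under 0.05.

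Genes of the undifferentiated and invasive state ranged from absent to abundant. Of 27 such symbols, of which 26 were in the files, 10 were tested and 9 were listed at 0 in every library, and none passed in limma in any comparison, adjusted or unadjusted (median log2 fold change 0.026 for straining and 0.083 for the inhibitor). Vim, an intermediate filament of mesenchymal cells, ranged from 500.3 to 779.2 FPKM, Sparc, a matrix glycoprotein, from 230.5 to 430.4 FPKM and Jun, an AP-1 subunit, from 10.9 to 16.2 FPKM. Nes, the neural stem cell filament nestin, and Cdh2, or N-cadherin, had an r of 0.97 and 0.94 with Mitf. Of the 10 tested genes 3 passed with a positive and 1 with a negative r, a share close to the 43.6% of all genes.

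Relatives and partners of the factors, and regulators of Mitf, were mixed. Of 26 paralogues and partners 16 were tested and none passed in limma in any comparison, adjusted or unadjusted; 5 had a positive and 3 a negative r with Mitf that passed, near the 43.6% of all genes. Sox4 (r = 0.97) and Sox11 (0.94), both SoxC factors, ran with Mitf, and Tfeb (-0.91), the lysosomal relative of Mitf, ran against it. The highest in level were Ctnnb1, or β-catenin (200.9 to 353.9 FPKM, r = 0.37), Ctbp1, a corepressor of ZEB proteins (97.8 to 149.5 FPKM, r = 0.29), and Id2, an inhibitor of E proteins (30.04 to 68.1 FPKM, r = 0.68). Of 23 regulators of Mitf 15 were tested, and none passed in limma in any comparison, adjusted or unadjusted. Of these 15, 6 had a positive and 0 a negative r that passed, in total again near the 43.6% of all genes. By sign, 27.9% of all genes passed with a positive and 15.6% with a negative r. With the GC trend removed 2 regulators passed with a positive and 1 with a negative r.

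Among these regulators Creb1, which acts through the cyclic AMP element capitalised in the M promoter above, had an r of 0.98 with Mitf and ranged from 0.713 to 3.50 FPKM. Nras (r = 0.93), Ppp3ca (0.97), a calcineurin subunit, and Hif1a (0.94), the hypoxia factor, also lay above 0.9. Creb1, Nras, Ppp3ca and Hif1a have a GC content of 39.6%, 42.6%, 45.4% and 41.3%, which puts them among the genes of lowest GC content above. Of genes from the other lists with r above 0.9, Sox11 (46.5%), Mcm4 (45.5%), Ppargc1a (41.7%) and Slc7a11 (40.7%) lie there too. Sox4 (51.1%) and Cdh2 (49.5%) lie in the middle, and Nes (55.5%) among those of highest GC content. The part of base composition in these values was not tested. Map2k1, a kinase upstream of ERK, was at 0.13 with 40.8 to 56.5 FPKM. Atf4, a stress factor that represses Mitf, was at -0.76 (exact permutation, adjusted p = 0.0538) with 125.5 to 336.7 FPKM.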

How the data were processed

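B16 melanoma cells were profiled by RNA sequencing in 9 libraries, 3 each of CTL, MS and MS + Blebb., and the groups and replicate numbers were taken from the titles in the labels. The authors sequenced TRIzol-extracted RNA and deposited FPKM, 1 value for each gene in each library. For CTL replicate 1 the column is headed by a sample name, and it was taken to hold FPKM too. The submitters' processing notes name the builds GRCm38 and mm10, while the aligner, counter, annotation and filters are not given in the sources used here. The columns summed to between 439939 and 484093 FPKM. Ratios of low values showed no common step (no log2 bin of width 0.02 held more than 2.14% of them), so the depth is unknown and no counting interval is given. No pair of libraries held identical values, and 0 columns were left unused. The labels number parallel experiments but do not say that they were separate cultures, so p-values measure the spread between these samples, which may be technical.

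The 3 groups were fitted together with limma 3.58.1 in R 4.3.3 (eBayes with trend, two-sided) on log2(FPKM + 1) over the 10109 genes that averaged 1 FPKM or more, with Benjamini-Hochberg adjustment over all of them. Correlations with Mitf used the same scale and exact two-sided permutation over 9 libraries, adjusted over 10108 genes. The scripts were tested on simulated data. The result of 1 marker list is not reported here. GC content came from the GENCODE M21 transcripts (9663 of the tested genes, 95.6%), whose release may differ from that of the authors, and its trend was removed by loess (span 0.5). The members, the gene lists and the libraries set apart were chosen with earlier results of these data known. From each list the text names the 3 genes highest in FPKM, genes with an unadjusted p under 0.05 in any comparison and genes with r above 0.9 or below -0.9 with Mitf. Tyr, Dct and Mlana are named beside these, as melanocyte markers. The genes most like and unlike Mitf were the 5 with the highest and the 5 with the lowest r among genes averaging 5 FPKM or more.

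The alternatives were a pseudocount of 0.1, a minimum mean of 5 FPKM or none, median-of-ratios factors, quantile normalization, no trend, removal of the GC trend, a block for the libraries set apart or their removal, a replicate block, a fit of only the groups compared, Spearman's rho, removal of group means and leaving out each library.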

Additional observations from a re-analysis of the deposited data

How the results depend on the processing

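No factor passed an adjusted p of 0.05 in any comparison under any alternative run, and only 1 gene of all, Gm49527, passed in any, in the straining and the inhibitor comparison without MS replicate 2; with each library left out these counts of genes ran from 0 to 1. Same-numbered libraries had r from -0.785 to 0.835 between their deviations from the group means. With 3 libraries per group these values cannot show whether the numbers of the replicates pair the samples. With the replicate block 0 genes passed in each comparison, as without it. Genes with an unadjusted p under 0.05 numbered 14 for straining, 119 for the inhibitor and 10 between MS + Blebb. and CTL with the block, against 16, 126 and 9 without it, and over all alternatives they ran from 7 to 183, from 34 to 934 and from 7 to 183. The factors with an adjusted p under 0.05 for the correlation with Mitf fell from 3 to 1 with the GC trend removed, to 0 without the 2 libraries farthest from the median of Mitf and to 1 without the 3 libraries set apart, and were 3 to 4 with each library left out. With quantile normalization 4 passed, when 4904 of 10108 genes did. Sox9 was then among them, with an r of -0.86 (exact permutation, adjusted p = 0.0150). The genes that passed fell from 4404 to 1713 without the 3 libraries set apart and to 810 without the 2 farthest, and ran from 2475 (without MS + Blebb. replicate 2) to 4715 with each library left out. The cause was not tested. A minimum mean of 5 FPKM left 5 of the 7 factors to test, without Sox9 and Tcf4, and correlations with group means removed have no test and so no count.

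Log2 fold changes changed sign without the 3 libraries set apart for Mitf (-0.18), Pax3 (-0.13) and Tfap2a (-0.22) in the straining comparison and for Tfap2a (0.11) in the inhibitor comparison. With the GC trend removed Tfap2a was at 0.018 in the inhibitor comparison and at 0.021 between MS + Blebb. and CTL. In the latter comparison Sox10 was at 0.024 with median-of-ratios factors and Sox9 at 0.044 with quantile normalization. The r of Lef1 with Mitf was -0.029 with group means removed. Leaving out 1 library at a time, the straining fold change on the log2 scale ran from -0.24 to 0.51 for Mitf, from -0.0043 to 0.30 for Pax3, from -0.30 to 0.33 for Tfap2a, from -0.087 to 0.84 for Zeb2 and from -0.051 to 0.47 for Tcf4. Between MS + Blebb. and CTL it ran from -0.80 to 0.086 for Mitf, from -0.12 to 0.10 for Sox10, from -0.37 to 0.27 for Tfap2a, from -0.81 to 0.18 for Zeb2 and from -0.11 to 0.064 for Sox9, and in the inhibitor comparison from -0.26 to 0.19 for Tfap2a. The log2 ratios ran in the straining comparison from -0.10 to 0.82 for Zeb2 to Zeb1, from -0.045 to 0.12 for Sox10 to Sox9, from -0.16 to 0.79 for Mitf to Sox10 and from -0.042 to 0.15 for Snai2 to Zeb1, and in the inhibitor comparison from -0.079 to 0.090 for Sox10 to Sox9 and from -0.11 to 0.033 for Snai2 to Zeb1. Among the alternatives that can change a fold change, those of the factors kept their sign in 97 cases and changed it in 8, and with 1 library left out they kept it in 107 and changed it in 19. The ratios to Zeb1 restate the levels of Zeb2 and Snai2. FPKM without counts limits what can be said of Lef1, Zeb1 and Snai2.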

Other observations

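Genes of the integrated stress response and of DNA replication also differed between the 3 libraries set apart and the others. Those libraries and the gene lists were chosen with earlier results of these data known, so the values only describe that choice. The mean log2(FPKM + 1) of 15 tested stress response genes was 5.75 in CTL replicate 1, 5.54 in MS replicate 3 and 5.81 in MS + Blebb. replicate 2, and from 4.50 to 4.96 in the other 6 libraries. The mean of 15 S phase genes was 4.16, 4.61 and 4.20 in those 3 libraries and from 5.37 to 5.52 in the others. None of these genes had an adjusted p under 0.05 in limma in any comparison, and 1 stress response gene, Cebpb, and 0 S phase genes had an unadjusted p under 0.05. Cebpb had it in the inhibitor comparison and between MS + Blebb. and CTL, where 1.25% and 0.089% of all genes did. Between MS + Blebb. and MS the median log2 fold change was 0.20 for the stress response genes and -0.078 for the S phase genes, against -0.0059 for all genes. Between MS + Blebb. and CTL these medians were 0.15 and 0.0028, against -0.013 for all genes.

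Among the stress response genes 1 had a positive and 4 a negative r with Mitf that passed, with a median of -0.75, where 43.6% of all genes passed and the median was 0.229. Asns, asparagine synthetase (127.7 to 330.8 FPKM), and Phgdh, the first enzyme of serine synthesis (282.5 to 419.0 FPKM), had an r of -0.80 and -0.83, and Slc7a11, the cystine transporter (1.60 to 11.9 FPKM), had an r of 0.91. Cebpb, a bZIP factor, was 16.4, 20.6 and 15.3 FPKM in MS + Blebb. against 13.6, 11.2 and 12.0 FPKM in MS, which differ by 0.47 on the log2 scale (limma, adjusted p = 0.897). Of the S phase genes 6 had a positive and 0 a negative r with Mitf that passed, with a median of 0.71. In total this is near the 43.6% of all genes, of which 27.9% passed with a positive and 15.6% with a negative r. With the GC trend removed the S phase counts were again 6 and 0, with a median of 0.75, when 1510 of 9662 genes passed with a positive r. Mcm4, a subunit of the replicative helicase, had an r of 0.92 (6.004 to 26.2 FPKM), Rrm2, a ribonucleotide reductase subunit, of 0.86 (39.4 to 139.0 FPKM), Pcna, the sliding clamp, of 0.83 (106.8 to 342.1 FPKM) and Mcm2 of 0.64 (98.5 to 228.4 FPKM). Whether the level of Mitf in the libraries set apart belongs with these genes was not tested.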
